A study of Mus musculus with 16 samples.

Results

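Cadherins and protocadherins are cell-surface adhesion proteins, and their genes were followed here in brain tissue of mice with a defect of the PDGF-B growth factor. The members were the protein-coding rows of the count table whose mouse symbol begins with Cdh and a digit, or with Pcdh. The table held 92 such rows among its 21804, and 88 of them had a mean of 10 or more counts over the 16 libraries. These 88 were 20 cadherins, 12 non-clustered protocadherins and 56 clustered protocadherins, of which 14 lay in the alpha, 21 in the beta and 21 in the gamma gene cluster. The 4 rows that fell short were Cdh17 (mean of 2.46 counts), Cdh16 (2.96), Cdh3 (3.66) and Pcdhb1 (4.97), and the lowest member was Pcdh12 with a mean of 11.8 counts. Pcdhgb8, annotated as a polymorphic pseudogene, was not a member.

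The mice were C57BL/6, 4 months old, and carried the Pdgfb ret allele on 1 chromosome (Pdgfb ret/wt, the controls) or on both (Pdgfb ret/ret). The ret allele lacks the retention motif that holds PDGF-B close to the vessel wall, and all 8 animals carried at least 1 copy. A cortex and a thalamus library from every animal gave 4 libraries of each region in each genotype. Calcifications were present in ret/ret thalamus, where the pieces were dissected out by their own fluorescence, while ret/wt thalamus was sampled as the matching region. Genotype and the way of dissection therefore cannot be told apart in thalamus.

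Classical cadherins join neighbouring cells through calcium-dependent binding of like molecules and are anchored to actin by catenins. Protocadherins bind more weakly and signal through other partners. The clustered protocadherins give neurons a combinatorial surface identity: in the alpha and gamma clusters each variable exon has its own promoter and is spliced to shared constant exons. The last genes of these clusters, called C-type (Pcdhac1, Pcdhac2, Pcdhgc3, Pcdhgc4 and Pcdhgc5), are expressed more uniformly than the others, which neurons choose at random. In blood vessels, Cdh5 (VE-cadherin) holds endothelial cells together.

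Library totals ran from 13415391 to 29135064 counts. Summed markers of cortical excitatory neurons lay at 1044 to 1681 CPM in ret/wt cortex and 694 to 2479 in ret/ret cortex, against 14.4 to 270.5 over the 8 thalamus libraries. CPM here are counts scaled to a common library size with TMM factors. Summed markers of thalamic neurons lay at 553 to 1404 CPM in ret/wt thalamus and 298 to 1588 in ret/ret thalamus. In cortex they lay at 87.4 to 261 CPM in ret/wt and 171 to 396 in ret/ret, so the regions overlapped in ret/ret. The overlap lay between thalamus replicate 4, lowest of its group for all 5 markers, and cortex replicate 2, where Rora took 373 CPM. Oligodendrocyte markers lay at 1386 to 3503 CPM in cortex and 7092 to 12807 in thalamus. Mitochondrial genes took 5.38% ± 2.32 of counts in ret/wt cortex, 5.37% ± 1.28 in ret/ret cortex, 6.55% ± 1.88 in ret/wt thalamus and 9.06% ± 2.66 in ret/ret thalamus (SD, n = 4). Some libraries stood apart. The cerebellum marker sum was 12.1 to 132.6 CPM in 14 libraries, but 1635 in replicate 3 of ret/wt cortex and 3628 in replicate 2 of ret/ret cortex. The choroid plexus sum was 4.04 to 65.8 CPM in 15 libraries and 1095 in replicate 4 of ret/wt cortex. Pdgfb itself was not analysed here. In such bulk tissue, fewer cells of a type and less RNA per cell cannot be told apart.

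Per kilobase of annotated exon, the most abundant members in ret/wt cortex were Pcdh1 at 31.8 CPM per kilobase, Pcdhgc5 at 30.0, Pcdh9 at 25.02, Pcdhgc3 at 22.8 and Pcdh7 at 21.2. In ret/wt thalamus the order was Pcdhgc4 at 27.7, Pcdh9 at 27.6, Pcdhgc3 at 20.9, Cdh2 at 17.0 and Pcdh7 at 12.7 CPM per kilobase. Pcdh1 and Pcdhgc5 headed the cortical order and were not among the first 5 in thalamus. The spread within a group was wide: not divided by length, ret/wt cortex levels were 279.7 ± 97.7 CPM (SD, n = 4) for Pcdh1, 229 ± 103 for Pcdhgc5 and 169.7 ± 33.9 for Pcdh9, so neighbours in this order did not differ beyond their spread. The thalamic first place of Pcdhgc4 rested on replicate 4 (69.5, 56.4, 121 and 373 CPM in replicates 1 to 4, an order kept throughout).

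Thalamus was first set against cortex within each genotype. Most members had a lower fitted level in thalamus: the log2 fold change of thalamus over cortex was under 0 for 68 of 88 members in ret/wt (77.3%, with 47.8% of all genes tested) and for 73 of 88 in ret/ret (83.0%, with 51.4%). The median log2 fold change of the members was -0.39 in ret/wt and -0.44 in ret/ret, against 0.03 and -0.02 over all genes. In ret/wt 9 members had an adjusted p under 0.05 (10.2%, against 12.2% of all 14842 genes tested), with Cdh24 and Pcdh18 higher in thalamus (5.29% of all genes) and Pcdhac1, Pcdha12, Pcdha5, Pcdhac2, Pcdhgc5, Pcdh1 and Cdh9 lower (6.96%). In ret/ret 8 did (9.09%, against 9.33% of 14836), with Cdh24 higher (4.06% of all genes) and Pcdha5, Pcdhac2, the Pcdha11 row ENSMUSG00000007440, Pcdhga9, Pcdhga11, Pcdh1 and Pcdh20 lower (5.26%). Thus the share of members called was close to that of all genes in both genotypes. The groups did not overlap, with thalamus lower, for 19 members in ret/wt (10.7% of all genes) and 21 in ret/ret (9.07%), and for 11 in both (5.41%). They did not overlap with thalamus higher for 3 members in ret/wt (9.17% of all genes) and 1 in ret/ret (8.53%), and for 1, Cdh24, in both (4.28%).

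Cdh24, Pcdh1, Pcdha5 and Pcdhac2 were called in both genotypes (983 of all genes, 6.63%, were). All 13 members called in either had the same sign in both fits. These p-values are from the quasi-likelihood test of edgeR, adjusted over all genes after Benjamini and Hochberg. The fits held no term for the animal, although cortex and thalamus came from the same animals. An animal block called 9 members in ret/wt (8 also without it, with 1442 of all genes). In ret/ret it called 11 (6 also without it, with 1131 of all genes). With DESeq2 the counts were 14 in ret/wt (with 2658 of all 14842 genes called) and 22 in ret/ret (with 2637 of 14836). Under 3 other scalings of the libraries, 65 to 69 members lay under 0 in ret/wt and 69 to 73 in ret/ret. Leaving out 1 library gave 3 to 11 called members in ret/wt (with 1129 to 1756 of all genes) and 3 to 10 in ret/ret (with 605 to 1998). The count moved by over 1.5 times without ret/wt cortex replicate 1 (3 members), 2 (4) or 4 (4), ret/wt thalamus replicate 2 (4), ret/ret cortex replicate 1 (5), 3 (3) or 4 (5), and ret/ret thalamus replicate 1 (4), 3 (4) or 4 (3). The calls of Cdh24, Pcdh1 and Pcdhac1 in ret/wt, and of Pcdhga11 and the Pcdha11 row in ret/ret, held without any 1 library. Each other call was lost without any 1 of 3 to 6 of the 8 libraries, at adjusted p of at most 0.124. Without both animals whose cortex held cerebellum markers, 6 members were called in ret/wt (with 1385 of all 14838 genes) and 10 in ret/ret (with 2520 of 14836).

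**Figure D1:**
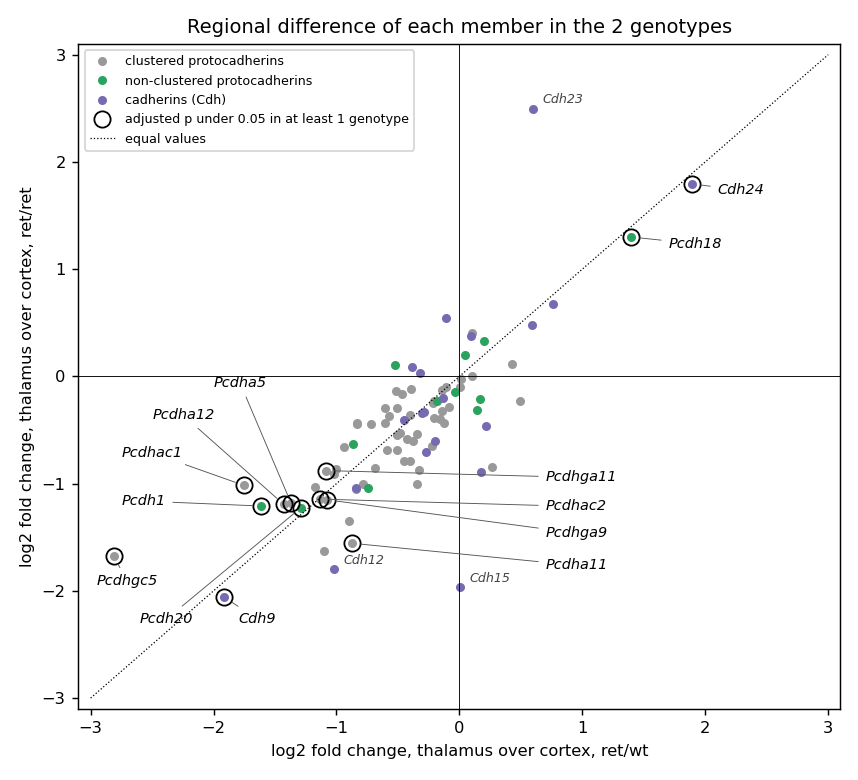
Log2 fold change of thalamus over cortex for each of the 88 members, in ret/wt (horizontal axis) and ret/ret (vertical axis), coloured by family, with a ring around the 13 members with an adjusted p under 0.05 in at least 1 genotype and a dotted line where both values are equal. Most points lie below 0 on both axes, 11 of the 13 ringed members are in the lower left, and Cdh24 and Pcdh18 are in the upper right.

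The promoters of 3 members that differed between the regions and lie outside the gene clusters are shown to give the sequence at the start of these genes: Cdh24 at chr14:54641315-54641614 on the minus strand, Pcdh18 at chr3:49757267-49757566 on the minus strand and Cdh9 at chr15:16728665-16728964 on the plus strand (RefSeq, GRCm38.p6, 250 bases before to 50 after the gene start). Capitals mark the Sp1 box GGGCGG on either strand.
Cdh24: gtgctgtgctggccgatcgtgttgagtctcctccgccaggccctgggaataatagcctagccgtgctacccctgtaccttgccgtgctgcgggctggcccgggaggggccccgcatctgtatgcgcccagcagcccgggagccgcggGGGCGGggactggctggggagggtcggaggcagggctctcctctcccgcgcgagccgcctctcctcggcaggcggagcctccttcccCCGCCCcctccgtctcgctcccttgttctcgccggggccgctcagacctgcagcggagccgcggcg
Pcdh18: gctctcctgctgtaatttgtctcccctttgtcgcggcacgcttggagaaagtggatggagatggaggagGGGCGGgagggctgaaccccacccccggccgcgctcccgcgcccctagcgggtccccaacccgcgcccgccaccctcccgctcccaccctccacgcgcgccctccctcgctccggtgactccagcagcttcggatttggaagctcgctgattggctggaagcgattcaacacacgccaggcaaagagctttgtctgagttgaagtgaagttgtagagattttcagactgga
Cdh9: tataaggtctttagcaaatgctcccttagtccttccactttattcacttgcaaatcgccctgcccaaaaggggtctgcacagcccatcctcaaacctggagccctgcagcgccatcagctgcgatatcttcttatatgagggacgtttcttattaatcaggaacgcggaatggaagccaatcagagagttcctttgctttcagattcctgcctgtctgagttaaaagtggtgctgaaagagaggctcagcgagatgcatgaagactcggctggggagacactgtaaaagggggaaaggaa

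The Cdh24 promoter was 73.3% G and C and held 2 Sp1 boxes, and that of Pcdh18 was 63.0% G and C and held 1. The Cdh9 promoter was 48.7% G and C and held none. The box occurred in 35.7% of the 32851 promoters in the table and in 9 of the 25 promoters listed for members. The TCF/LEF core TCAAAG, the ROR core AGGTCA and TATAAA, each searched on both strands, were in none of the 3 windows and in 16%, 16.3% and 13.6% of all promoters. Only the Sp1 box matched in these windows, so no matches of different motifs overlapped. The table listed promoters for 22 of the 88 members.

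Cdh24, a type II classical cadherin, had the largest rise in thalamus among the members called in each genotype. Its level was 5.82, 4.00, 2.22 and 6.06 CPM in the 4 ret/wt cortex libraries and 22.2, 18.8, 9.04 and 16.9 in ret/wt thalamus. In ret/ret it was 5.12, 3.41, 5.62 and 4.89 CPM in cortex and 22.2, 9.89, 25.1 and 9.71 in thalamus. Every thalamus library lay above every cortex library of the same genotype. The rise was 3.71-fold in ret/wt (log2 fold change 1.89 ± 0.38 (SE), adjusted p = 0.0104 in edgeR's test) and 3.47-fold in ret/ret (1.80 ± 0.37, adjusted p = 0.0183).

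Pcdh18, a delta-2 protocadherin, was also higher in thalamus. It was at 8.84, 6.25, 4.09 and 8.69 CPM in ret/wt cortex and 22.9, 28.4, 9.40 and 12.5 in ret/wt thalamus, where the groups did not overlap. It rose 2.63-fold in ret/wt (log2 fold change 1.40 ± 0.39, adjusted p = 0.0435 in edgeR's test). Its ret/ret levels were 7.46, 2.19, 5.26 and 3.07 CPM in cortex and 12.3, 7.20, 16.6 and 8.44 in thalamus, where thalamus replicate 2 lay within the cortical range. The ret/ret value was 1.30 ± 0.43, with an adjusted p of 0.0876 and of 0.0375 with the animal as a block.

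Cdh9, a type II cadherin known from synapses between particular neurons, was lower in thalamus. It was at 14.4, 15.1, 8.40 and 34.4 CPM in ret/wt cortex and 6.97, 7.10, 2.56 and 2.51 in ret/wt thalamus, and at 47.0, 7.30, 13.3 and 15.1 in ret/ret cortex and 3.53, 2.42, 6.91 and 7.07 in ret/ret thalamus. The 2 regions did not overlap in either genotype, although the highest cortex library of each genotype stood well above the rest. The log2 fold change was -1.91 ± 0.51 in ret/wt (adjusted p = 0.0353 in edgeR's test, 0.0616 with the animal block) and -2.06 ± 0.59 in ret/ret (adjusted p = 0.0596). Without ret/wt cortex replicate 4, the library with the choroid plexus markers, the ret/wt value of Cdh9 was -1.38 (adjusted p = 0.0988). Another type II cadherin, Cdh22, was at 21.6 to 52.8 CPM in ret/wt cortex and 10.7 to 32.2 in ret/wt thalamus. It had an adjusted p of 0.158 without and 0.0342 with the block in ret/wt. In ret/ret, Cdh12 ranged over 11.5 to 44.8 CPM in cortex and 2.29 to 10.97 in thalamus, without overlap. Its adjusted p in ret/ret was 0.0571 without and 0.0226 with the block.

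Pcdh1, a delta-1 protocadherin, fell in both genotypes. It was at 283, 236, 186 and 414 CPM in ret/wt cortex and 98, 101, 96.7 and 70.8 in ret/wt thalamus, a 3.06-fold difference without overlap (log2 fold change -1.61 ± 0.26, adjusted p = 0.00343 in edgeR's test). The highest library was ret/wt cortex replicate 4, which held the choroid plexus markers and was also the highest of all 16 for Pcdh17, Pcdh19 and Pcdh20. Without that library the ret/wt log2 fold change of Pcdh1 was -1.35, the value nearest 0 when single libraries were left out, and the call held. The part of choroid plexus tissue in the values of Pcdh17, Pcdh19 and Pcdh20 was not tested. In ret/ret, Pcdh1 was at 274, 105, 261 and 231 CPM in cortex and 88.4, 131, 95.3 and 65.2 in thalamus. Here replicate 2 of cortex, the library with the most cerebellum marker, lay below thalamus replicate 2. The ret/ret value was -1.21 ± 0.32, with an adjusted p of 0.0464, or 0.115 with the animal block.

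Pcdh20 was at 41.2, 36.3, 25.03 and 103 CPM in ret/wt cortex and 29.6, 29.8, 11.96 and 12.6 in ret/wt thalamus, which overlapped (log2 fold change -1.29 ± 0.47, adjusted p = 0.111 in edgeR's test). It fell in ret/ret thalamus, from 35.8, 40.6, 43.1 and 20.1 CPM in cortex to 11.8, 17.7, 20.6 and 10.1 in thalamus (-1.22 ± 0.31, adjusted p = 0.0387). The 2 ret/ret groups overlapped through cortex replicate 4. The remaining non-clustered protocadherins did not pass in either genotype. Among them Pcdh7, of the delta-1 group, was at 162 to 340.0 CPM in ret/wt cortex and 54.4 to 179 in ret/wt thalamus, and Pcdh10, of the delta-2 group, at 126 to 198 and 84.5 to 172.

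Of the 20 cadherins, 2 were called in ret/wt (10%, with 12.2% of all genes) and 1 in ret/ret (5%, with 9.33%). None of the 4 type I cadherins was called. Cdh2 (N-cadherin), the classical cadherin of neuronal and glial contacts, was at 111, 154, 153 and 183 CPM in ret/wt cortex and 143, 152, 153 and 100.2 in ret/wt thalamus. Its levels in ret/ret were 189, 115, 138 and 157 in cortex and 127, 148, 147 and 103 in thalamus. The regions overlapped in both genotypes (log2 fold change -0.13 ± 0.21 and -0.20 ± 0.19). Cdh13 (T-cadherin), which is held by a lipid anchor and has no cytoplasmic tail, was at 56.6, 80.9, 76.8 and 138 CPM in ret/wt cortex and 119, 89.2, 70.5 and 47.1 in ret/wt thalamus (adjusted p = 0.864 in edgeR's test). The ret/ret levels of Cdh13 were 91.2, 12.2, 57.1 and 73.3 in cortex and 74.0, 81.7, 119 and 69.9 in thalamus (adjusted p = 0.504). The lowest of these 16 values of Cdh13 was in ret/ret cortex replicate 2.

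**Figure D2:**
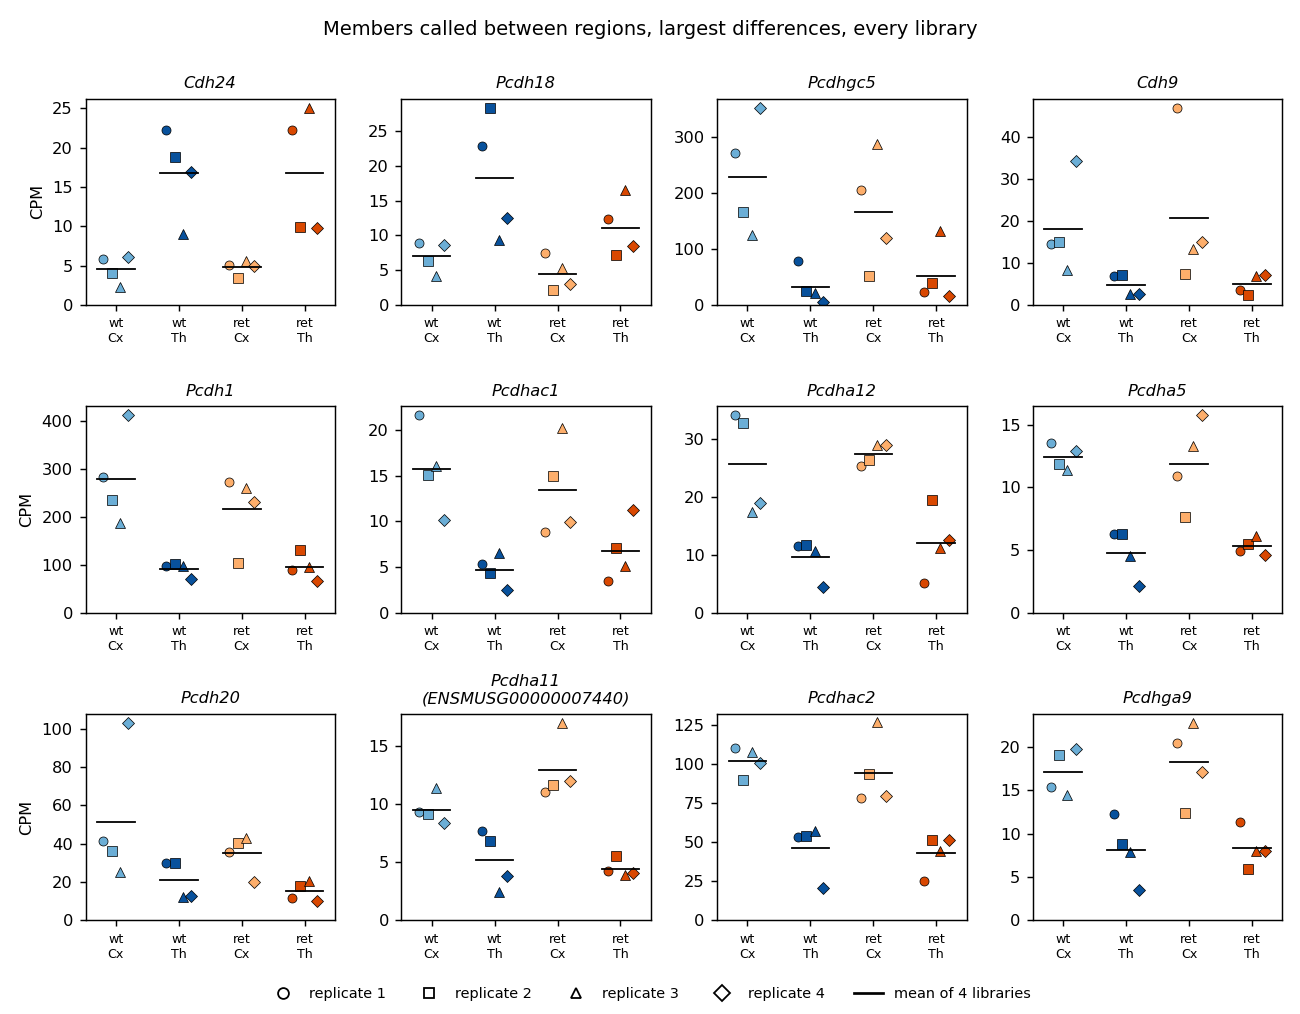
Level (CPM, axis from 0) of 12 of the 13 members called between the regions in at least 1 genotype (the 2 higher in thalamus and the 10 lower with the largest mean log2 fold change) in each of the 16 libraries, with wt for ret/wt, ret for ret/ret, Cx for cortex and Th for thalamus, marker shapes for the replicate (the animal within a genotype) and lines for the mean of 4. Cdh24 and Pcdh18 sit higher in thalamus, and the other 10 have higher means in cortex. Among those 10, ret/wt thalamus replicate 4 is the lowest of its group for all but Pcdh20 and the Pcdha11 row.

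The clustered protocadherins, 56 of the 88 members, carried most of the lower values. In ret/wt 49 of 56 had a log2 fold change under 0 (87.5%, with 47.8% of all genes). There 5 were called lower (8.93%, with 6.96% of all genes) and none was called higher (5.29%). In ret/ret 53 of 56 were under 0 (94.6%, with 51.4% of all genes). Again 5 were called lower (8.93%, with 5.26%) and none higher (4.06%). All 21 gamma genes were under 0 in ret/ret and 20 of 21 in ret/wt. None of the 21 beta genes passed in either genotype, although 18 of them were under 0 in ret/wt and 19 in ret/ret, and 3 and 9 had an unadjusted p under 0.05 (27% and 26.9% of all genes). Counts of single genes in these clusters are uncertain, because the annotated exons of an alpha gene overlapped those of other alpha genes over 38.0% to 54.9% of their bases, and those of a gamma gene over 27.8% to 66.8%.

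The rows of each cluster were therefore also summed, 14 for alpha and 22 each for beta and gamma, since the sums also hold Pcdhb1 and Pcdhgb8, which are not members. The alpha sum was 267, 230.0, 233 and 232 CPM in ret/wt cortex and 181, 138, 146 and 92.0 in ret/wt thalamus. The ret/ret values were 207, 219.7, 286 and 214 in cortex and 82.8, 155, 140.0 and 133 in thalamus. The regions did not overlap in either genotype. The alpha sum fell in both, with a log2 fold change of -0.79 ± 0.22 in ret/wt (adjusted p = 0.0391 in edgeR's test) and -0.85 ± 0.22 in ret/ret (adjusted p = 0.0416). Leaving out single libraries gave values of -0.94 to -0.63 with adjusted p of 0.0331 to 0.108 in ret/wt, and -0.96 to -0.68 with 0.0361 to 0.112 in ret/ret. The call was lost without any 1 of 6 libraries in ret/wt (all but thalamus replicates 1 and 4) and of 6 in ret/ret (all but cortex replicate 2 and thalamus replicate 2).

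The gamma sum was 971, 829, 766 and 996 CPM in ret/wt cortex and 629, 567, 534 and 531 in ret/wt thalamus, without overlap. It was 966, 1003, 902 and 807 in ret/ret cortex and 699.6, 594, 675 and 455 in ret/ret thalamus, again without overlap. It fell in ret/wt (-0.66 ± 0.17, adjusted p = 0.0319 in edgeR's test, 0.0676 with the animal block), and the ret/ret value was -0.59 ± 0.17 with an adjusted p of 0.0619. The ret/wt call was also lost without any 1 of 6 libraries (all but cortex replicate 3 and thalamus replicate 4), with adjusted p up to 0.0986. Pcdhgc5, 1 of the summed gamma rows, lay at 126 to 352 CPM in ret/wt cortex and 5.09 to 78.8 in ret/wt thalamus. The gamma sum without Pcdhgc5 was not tested. The beta sum was -0.33 ± 0.22 in ret/wt (adjusted p = 0.364) and -0.41 ± 0.17 in ret/ret (adjusted p = 0.161).

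**Figure D3:**
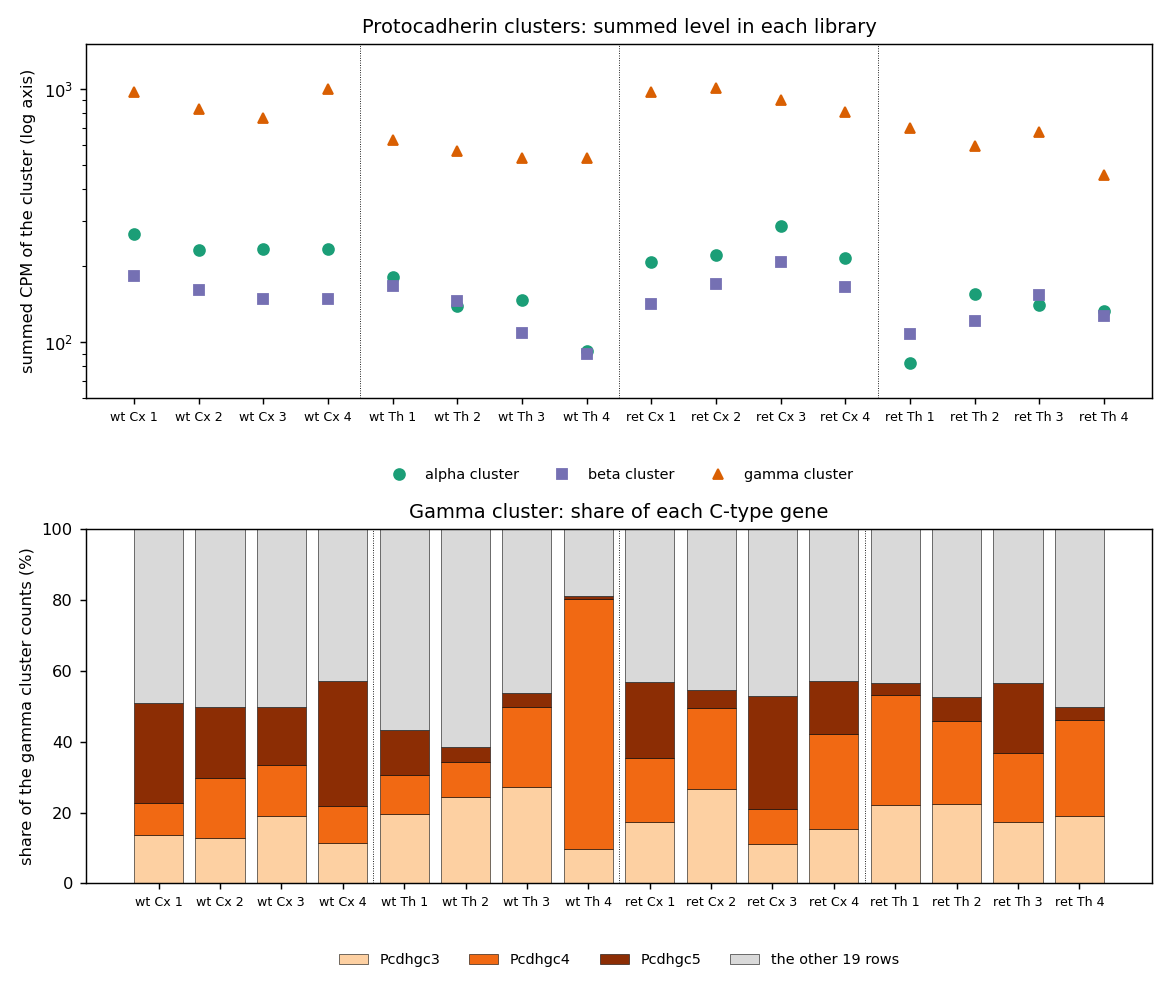
Upper panel, summed level of the rows of the alpha, beta and gamma clusters (CPM, log axis) in each of the 16 libraries, with wt for ret/wt, ret for ret/ret, Cx for cortex and Th for thalamus, where the alpha and gamma sums of thalamus lie below those of cortex in both genotypes. Lower panel, share of the gamma cluster's counts (%) taken by Pcdhgc3, Pcdhgc4, Pcdhgc5 and the other 19 rows, where Pcdhgc4 takes 70.3% in ret/wt thalamus replicate 4.

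Within the alpha cluster, the C-type gene Pcdhac2, which is needed for the spacing of serotonergic axons, took the largest share, 42.6% ± 3.07 (SD, n = 4) of the alpha counts in ret/wt cortex and 32.7% ± 8.01 in ret/wt thalamus. It was at 111, 89.9, 108 and 101 CPM in ret/wt cortex and 53.6, 54.2, 57.3 and 20.96 in ret/wt thalamus, and at 78.4, 93.6, 127 and 79.8 in cortex and 25.2, 51.6, 44.6 and 51.3 in thalamus of ret/ret. It fell in both genotypes, 2.20-fold (log2 fold change -1.14 ± 0.29, adjusted p = 0.0292 in edgeR's test) and 2.21-fold (-1.14 ± 0.26, adjusted p = 0.0291). The groups did not overlap in either. The other C-type alpha gene, Pcdhac1, was at 21.6, 15.1, 16.1 and 10.2 CPM in ret/wt cortex and 5.27, 4.37, 6.48 and 2.51 in ret/wt thalamus. It fell there (-1.75 ± 0.34, adjusted p = 0.00879). In ret/ret it was at 8.85, 14.96, 20.2 and 9.91 in cortex and 3.49, 7.07, 5.11 and 11.3 in thalamus, where the groups overlapped (-1.02 ± 0.41, adjusted p = 0.145).

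The other alpha genes that passed are variable genes of the kind that neurons choose. Pcdha5 was at 13.6, 11.8, 11.4 and 12.9 CPM in ret/wt cortex and 6.24, 6.28, 4.52 and 2.12 in ret/wt thalamus, and at 10.9, 7.61, 13.3 and 15.8 in cortex and 4.91, 5.50, 6.13 and 4.58 in thalamus of ret/ret, without overlap in either. It fell in both, with a log2 fold change of -1.37 ± 0.34 in ret/wt (adjusted p = 0.0251 in edgeR's test) and -1.18 ± 0.27 in ret/ret (adjusted p = 0.0270, 0.0601 with the animal block). Pcdha12 fell in ret/wt, from 34.2, 32.8, 17.4 and 18.9 CPM in cortex to 11.5, 11.6, 10.7 and 4.36 in thalamus (-1.43 ± 0.36, adjusted p = 0.0265). In ret/ret its values were 25.4, 26.4, 28.97 and 28.96 in cortex and 5.05, 19.4, 11.1 and 12.6 CPM in thalamus, which did not overlap either (-1.19 ± 0.35, adjusted p = 0.0611). The gene annotation used here (GENCODE) gives the symbol Pcdha11 to 2 Ensembl rows of the table. At the row described here, RefSeq places Pcdha10. The row ENSMUSG00000007440 fell in ret/ret, from 11.04, 11.6, 17.0 and 11.9 CPM in cortex to 4.27, 5.50, 3.89 and 4.02 in thalamus (-1.56 ± 0.24, adjusted p = 0.00676). In ret/wt it was at 9.31, 9.08, 11.3 and 8.32 in cortex and 7.65, 6.83, 2.44 and 3.77 CPM in thalamus (-0.87 ± 0.36, adjusted p = 0.152).

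In the gamma cluster, the C-type gene Pcdhgc5, which is known to bind GABA receptors, had the largest fitted fall of all members in ret/wt. It was at 272, 166, 126 and 352 CPM in ret/wt cortex and 78.8, 24.4, 21.6 and 5.09 in ret/wt thalamus, without overlap. The fall was 7.03-fold (log2 fold change -2.81 ± 0.68, adjusted p = 0.0241 in edgeR's test). Without ret/wt thalamus replicate 1, the highest of its group, the value was -3.74, and the call was lost without cortex replicate 1 or 4 or thalamus replicate 2 or 3. Its ret/ret levels were 206, 52.2, 288 and 120.4 CPM in cortex and 22.5, 39.3, 132 and 15.7 in thalamus, and the groups overlapped (-1.68 ± 0.72, adjusted p = 0.172). Its share of the gamma counts ran from 16.4% to 35.3% in ret/wt cortex and from 0.964% to 12.5% in ret/wt thalamus.

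Of the variable gamma genes, Pcdhga11 and Pcdhga9 fell in ret/ret thalamus. Pcdhga11 was at 33.7, 32.1, 36.0 and 40.8 CPM in ret/ret cortex and 18.2, 23.0, 18.9 and 18.0 in thalamus (log2 fold change -0.88 ± 0.16, adjusted p = 0.0121 in edgeR's test). Its ret/wt values were 53.0, 42.6, 44.7 and 42.7 in cortex and 24.8, 28.0, 26.4 and 6.61 CPM in thalamus (-1.09 ± 0.37, adjusted p = 0.0882). Pcdhga9 was at 20.5, 12.4, 22.8 and 17.1 CPM in ret/ret cortex and 11.3, 5.86, 7.98 and 8.03 in thalamus (-1.15 ± 0.26, adjusted p = 0.0290), and at 15.4, 19.04, 14.4 and 19.8 in cortex and 12.2, 8.85, 7.85 and 3.44 in thalamus of ret/wt (-1.08 ± 0.34, adjusted p = 0.0704). Neither gene overlapped between the regions in either genotype. With the animal block, Pcdhga1 and Pcdhga12 (adjusted p = 0.0388 and 0.0355) and the beta gene Pcdhb19 (0.0369) also passed in ret/ret, against 0.0607, 0.0719 and 0.0622 without it.

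The ret/wt thalamus replicate 4 library differed from its group in how counts were divided within the clusters. The C-type gene Pcdhgc4, which supports the survival of cortical interneurons, was at 69.5, 56.4, 121 and 373 CPM in ret/wt thalamus. It took 70.3% of the gamma counts in replicate 4 and 9.95% to 22.6% in the other 3. Pcdha4 was at 12.9, 11.4, 14.9 and 35.5 CPM, 38.6% of the alpha counts in replicate 4 and 7.13% to 10.2% in the others. The gamma sum of replicate 4 lay just below that of replicate 3, while its alpha sum was the lowest of the group. The library had the highest sum of the 5 pericyte markers in its group (297 CPM, against 86.4 to 153.4). Vtn made up most of it, at 226 CPM, against 22.3 to 60.3 in the others, while Rgs5 (44.6 CPM) and Abcc9 (3.50) were the lowest of the group. The library also had the highest smooth muscle markers (47.1 CPM over the 2 of 3 markers in the table, against 5.83 to 12.4). Its fibroblast (139 CPM), choroid plexus (58.3, against 7.94 to 20.9) and ependyma sums (22.4) were the highest of the group too. Its sums of thalamic neuron (553 CPM, against 671 to 1404) and astrocyte markers (800) were the lowest. The part of these marker differences in the division of counts was not tested. Without this library the ret/wt alpha sum was -0.63 ± 0.16 (adjusted p = 0.0345) and the gamma sum -0.63 ± 0.16 (adjusted p = 0.0398).

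Genotype was then compared within each region. No member passed in thalamus (0 of 88, with 0% of 14841 genes called) or in cortex (0 of 88, with 0.0202% of 14839 called) in edgeR's test. At an unadjusted p under 0.05 there were 2 members in thalamus (Cdh26 and Cdh23; 4.01% of all genes) and 3 in cortex (Cdh26, Pcdhgc4 and Pcdhga11; 3.98%). DESeq2 called 1 member in thalamus, Cdh26 (with 36 of all 14841 genes), and 0 in cortex (with 37 of 14839). With limma-voom 0 members were called in both (with 0 and 2 of all genes). The median log2 fold change of ret/ret over ret/wt over the members was -0.05 in thalamus and -0.02 in cortex, against -0.02 and 0.01 over all genes. The cluster sums did not pass either, with log2 fold changes of -0.11 ± 0.25, 0.01 ± 0.22 and 0.11 ± 0.18 for alpha, beta and gamma in thalamus, and -0.07 ± 0.16, 0.08 ± 0.16 and 0.03 ± 0.16 in cortex (adjusted p of at least 0.998).

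Cdh26, an atypical cadherin studied mostly in epithelia, was higher in every ret/ret library than in any ret/wt library of the same region. In thalamus it was at 0.297, 0.983, 0.357 and 0.331 CPM in ret/wt and 3.26, 2.55, 4.14 and 3.92 in ret/ret. In cortex it was at 0.310, 1.89, 0.0870 and 0.0537 CPM in ret/wt and 2.997, 3.54, 8.99 and 5.22 in ret/ret. Cdh26 passed the filter on low counts only through ret/ret: its mean was 8.8 counts over the 8 ret/wt libraries and 92.4 over the 8 ret/ret libraries. The ret/wt values rest on few counts: 7.4, 18.4, 5.9 and 5.3 estimated counts in thalamus and 3.7, 26, 2.2 and 1.5 in cortex. In edgeR's test the log2 fold change of ret/ret over ret/wt was 2.81 ± 0.49 in thalamus (adjusted p = 0.443) and 3.20 ± 0.95 in cortex (adjusted p = 0.970), so neither passed over all genes. DESeq2 gave an adjusted p of 0.000135 in thalamus and 0.0802 in cortex. Of all genes, 1.82% in thalamus and 1.79% in cortex were higher in ret/ret without overlap. Without overlap and with ret/ret higher in both regions were 36 of 14837 genes (0.243%), and the 2 regions came from the same animals. In ret/wt the highest value in both regions was that of replicate 2. Leaving out single libraries gave 2.61 to 3.39 in thalamus and 2.78 to 5.17 in cortex. Its promoter is shown as that of the member with the largest fitted genotype difference, at chr2:178430265-178430564 on the plus strand of GRCm38.p6 (RefSeq), with 44.0% G and C and none of the 4 motifs.
Cdh26: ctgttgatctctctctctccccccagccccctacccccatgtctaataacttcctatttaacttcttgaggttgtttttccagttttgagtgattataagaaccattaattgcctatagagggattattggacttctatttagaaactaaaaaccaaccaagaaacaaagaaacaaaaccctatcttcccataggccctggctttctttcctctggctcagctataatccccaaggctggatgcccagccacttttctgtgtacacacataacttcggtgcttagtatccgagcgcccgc

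Cdh23, which forms the tip links of hair cells with Pcdh15, was high in a single library. It was at 3.57, 2.95, 1.61 and 0.595 CPM in ret/wt thalamus and 2.43, 2.24, 4.53 and 36.2 in ret/ret thalamus, so replicate 4 alone lay above 4.53. The log2 fold change was 2.38 ± 0.95 (adjusted p = 1 in edgeR's test), and 0.50 without that library. That library also had the lowest sum of thalamic neuron markers in its group (298 CPM, against 464 to 1588). Whether this bears on the Cdh23 value was not tested. In cortex Cdh23 was at 0.653 to 1.93 CPM in ret/wt and 0.798 to 2.92 in ret/ret. Its partner Pcdh15 was at 26.5, 20.7, 14.9 and 6.28 CPM in ret/wt thalamus and 8.95, 10.3, 10.95 and 8.39 in ret/ret thalamus. Ret/wt replicate 4 lay below every ret/ret library there, and the other ret/wt libraries lay above all of them (-0.81 ± 0.37, adjusted p = 1).

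In cortex, Pcdhga11 was at 53.0, 42.6, 44.7 and 42.7 CPM in ret/wt and 33.7, 32.1, 36.0 and 40.8 in ret/ret, without overlap (0.633% of all genes were lower without overlap). Its log2 fold change was -0.36 ± 0.15 (adjusted p = 0.998 in edgeR's test). Pcdhgc4 was at 88.9, 140.1, 109 and 103 CPM in ret/wt cortex and 175, 229, 90.4 and 217 in ret/ret cortex. Replicate 3 was the one ret/ret library within the ret/wt range (0.69 ± 0.28, adjusted p = 0.998).

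Of the vascular members, Cdh5 was at 18.99, 14.6, 13.5 and 15.5 CPM in ret/wt thalamus and 68.9, 13.1, 13.3 and 28.4 in ret/ret thalamus. The difference of 0.99 ± 0.49 did not pass (adjusted p = 1 in edgeR's test), and it was 0.23 without ret/ret thalamus replicate 1. That library also had the highest sums of the 6 endothelial (324 CPM, against 141 to 265 in the rest of its group) and 5 fibroblast markers (242 CPM, against 26.7 to 74.2). Its pericyte (195 CPM), smooth muscle (32.9), choroid plexus (65.8), ependyma (50.5), astrocyte (1554) and microglia sums (285) were the highest of its group as well. The part of these marker differences in the Cdh5 value was not tested. In cortex Cdh5 was at 22.8, 13.5, 9.66 and 12.8 CPM in ret/wt and 43.1, 16.05, 21.7 and 12.8 in ret/ret (0.67 ± 0.40, adjusted p = 0.998). Its highest cortical value, in ret/ret replicate 1, went with the highest endothelial sum of cortex (315 CPM). Pcdh12, an endothelial protocadherin, was at 0.807, 0.328, 0.119 and 0.0661 CPM in ret/wt thalamus and 2.62, 0.582, 0.195 and 0.356 in ret/ret thalamus, again highest in ret/ret replicate 1. It too passed the filter only through ret/ret, with a mean of 6.38 counts in ret/wt. In cortex Pcdh12 was at 0.621, 0.145, 0.261 and 0.322 in ret/wt and 1.02, 0.568, 0.471 and 1.17 in ret/ret (1.24 ± 0.58, adjusted p = 0.998). Between the regions, neither Cdh5 (adjusted p = 0.866 and 0.714) nor Pcdh12 (0.981 and 0.900) passed in either genotype. Cdh2 and Cdh13, given above, overlapped between genotypes in both regions.

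**Figure D4:**
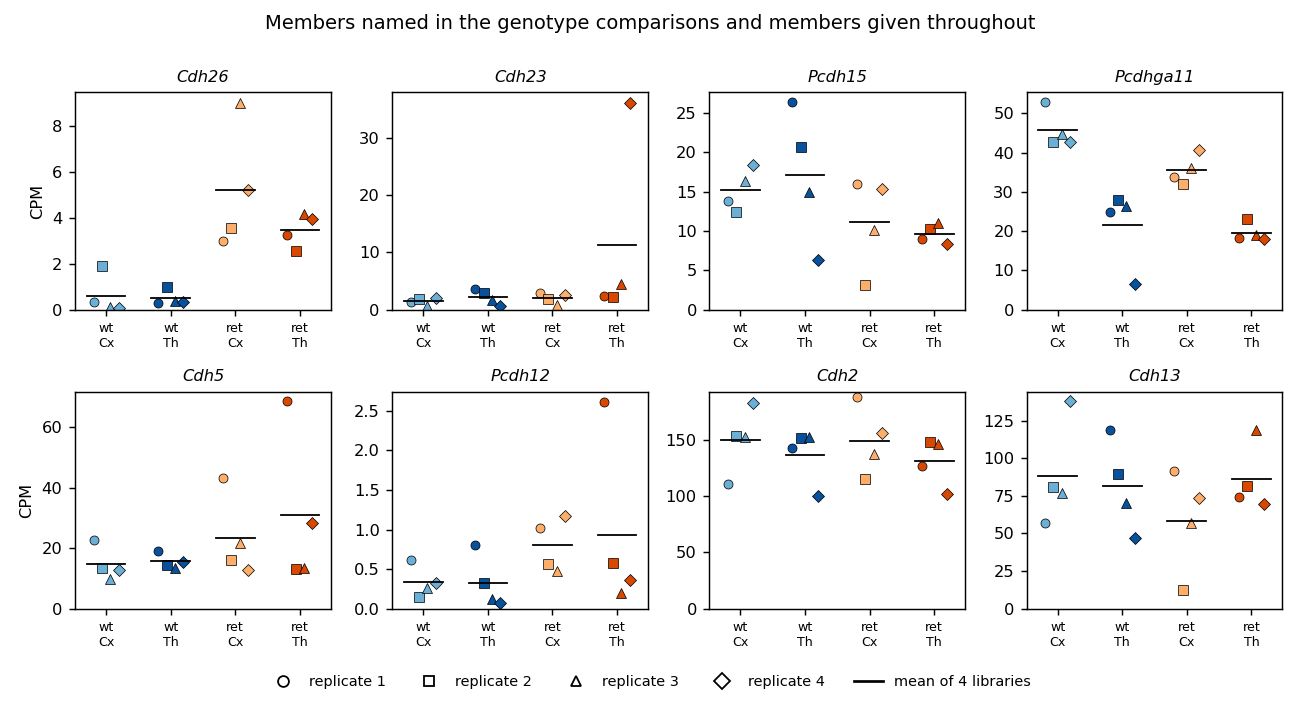
Level (CPM, axis from 0) of 8 members in each of the 16 libraries, with wt for ret/wt, ret for ret/ret, Cx for cortex and Th for thalamus, marker shapes for the replicate and lines for the mean of 4. Cdh26 is higher in all 8 ret/ret libraries than in the 8 ret/wt libraries, while the ret/ret thalamus means of Cdh23, Cdh5 and Pcdh12 each follow 1 high library.

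Whether the genotype difference itself changed between regions was tested as an interaction over all 16 libraries. No member passed in edgeR's test (0 of 88, with 0% of 14843 genes), and 0 had an unadjusted p under 0.05 (1.58% of all genes). DESeq2 and limma-voom called 0 members as well (with 4 and 0 of all genes). The smallest unadjusted p-values belonged to Pcdha4 (-1.10 ± 0.57), Cdh15 (-1.96 ± 1.17) and Cdh23 (1.90 ± 1.15), each with an adjusted p that rounds to 1. For Cdh26 the interaction was -0.39 ± 1.09. The Cdh15 value rested on 1 library. Cdh15 (M-cadherin), known from muscle and from cerebellar granule cells, was at 4.97, 34.9, 1.09 and 1.5 CPM in ret/ret cortex, and its interaction was 0.13 without replicate 2, the library with the highest cerebellum markers. Cdh15 was also highest in ret/wt cortex in the other library with cerebellum markers, replicate 3 (1.78, 1.16, 6.40 and 2.90 CPM in the 4 libraries). The part of cerebellum tissue in these values was not tested. The values of Pcdha4 in ret/wt thalamus, given above, were high in replicate 4 alone, and its interaction was -0.59 without that library.

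Partners of these proteins were described from lists. Of 12 genes of the WAVE complex, an actin regulator recruited by several protocadherins, and kinases bound by protocadherins, 5 fell in ret/wt thalamus against cortex and 4 in ret/ret, and none rose (median log2 fold change -0.62 and -0.46). Of all genes, 6.96% were called lower in ret/wt and 5.26% in ret/ret, and the lists were chosen with earlier results of these data known. Wasf1, which encodes a WAVE protein, fell, with a log2 fold change of -2.12 ± 0.23 in ret/wt (adjusted p = 0.000449 in edgeR's test) and -1.88 ± 0.26 in ret/ret (adjusted p = 0.00555). The complex subunits Nckap1 (-0.75 ± 0.20 and -0.72 ± 0.18) and Abi2 (-1.17 ± 0.26 and -1.45 ± 0.30) and the kinase Ptk2b (-3.01 ± 0.55 and -2.62 ± 0.64) fell in both, and the kinase Ptk2 in ret/wt (-1.36 ± 0.39).

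Over the 65 tested genes of all the lists, 2 were called higher in thalamus and 8 lower in ret/wt, and 1 and 6 in ret/ret. Of all genes, 5.29% were called higher and 6.96% lower in ret/wt, and 4.06% and 5.26% in ret/ret. Among 14 catenins and junction partners, 1 was called higher and 1 lower in ret/wt, and 1 lower in ret/ret. The alpha-catenin gene Ctnna1 rose in ret/wt thalamus (0.57 ± 0.16, adjusted p = 0.0470 in edgeR's test). The adhesion gene Nectin3 fell in both genotypes (-1.36 ± 0.28 and -1.0 ± 0.26). Of 9 proteases and regulators of cadherin turnover, Cbll1, a ubiquitin ligase gene, fell in ret/wt (-0.89 ± 0.25), and Adam10, whose product sheds cadherin ectodomains, fell in ret/ret (-0.65 ± 0.16). Of 19 tested genes of the wider cadherin superfamily (24 written), Ret, a receptor kinase with cadherin-like repeats, rose in both (2.73 ± 0.40 and 2.65 ± 0.71), and Clstn2, a postsynaptic calsyntenin gene, fell in ret/wt (-0.77 ± 0.19). None of the 11 tested regulators of protocadherin cluster choice, among them Ctcf and Rad21, passed in either genotype. At an unadjusted p under 0.05 were 1 of them in ret/wt and 2 in ret/ret (27% and 26.9% of all genes). In the genotype comparisons and the interaction, 0 of the 65 tested genes of these lists passed in edgeR's test. At an unadjusted p under 0.05 there were 4 in thalamus (4.01% of all genes), 2 in cortex (3.98%) and 1 in the interaction (1.58%).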

How the data were processed

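Polyadenylated RNA of cortex and thalamus from 8 mice was sequenced with a stranded kit, per the labels' protocols. The authors deposited estimated counts per Ensembl gene, with kallisto 0.44.0 and GRCm38.p6 named in the submitters' processing notes. How transcripts were summed to genes and which strand setting was used is not given in the sources used here, so overlapping genes could share reads. Of the 21804 rows, 99.1% matched GENCODE M21 on the same build. Totals differed 2.17-fold between libraries.

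Counts were rounded and genes with a mean of 10 or more counts were tested with edgeR 4.0.16 (quasi-likelihood, TMM, Benjamini-Hochberg over all genes, threshold 0.05), each comparison on its own 8 libraries and the interaction on all 16. The log2 fold changes are given with their SE. CPM use TMM factors over all 16 libraries, and exon lengths for CPM per kilobase come from GENCODE. Alternatives included DESeq2 1.42.0, limma-voom 3.58.1, other scalings and filters, and each library left out. For cluster sums, leaving out libraries was chosen after seeing the data. Cortex and thalamus of 1 animal pair by the labels within a genotype (mean correlation of deviations 0.0543 in ret/wt and 0.0875 in ret/ret). Scripts were tested on simulated data.

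The members and gene lists were chosen with earlier results of these data known. Values in every library are given for members called in a region comparison, for Cdh2, Cdh5, Cdh13 and Pcdh12, and for the 3 smallest unadjusted p-values of each genotype comparison and of the interaction. Cdh12, Cdh22, Pcdh7, Pcdh10, Pcdhga1, Pcdhga12 and Pcdhb19 were named after their values were seen.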

Additional observations from a re-analysis of the deposited data

Results flagged for a closer look

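In groups of 4 libraries, 11 of 92 groups of the members described had 1 library far from the other 3 (its gap to the nearest of them above Dixon's limit for the share of the range). That limit is passed by about 1 in 20 independent groups of normal values. Most of these members were picked by their values here and share libraries, so the 11 cannot be set against that rate. Of the 11 flags, 5 fell on ret/wt thalamus replicate 4. There Pcdha4 was high at 35.5 CPM (others 11.4 to 14.9), while Pcdh1 at 70.8 CPM (others 96.7 to 101), Pcdha12 at 4.36 (others 10.7 to 11.6), Pcdhac2 at 20.96 (others 53.6 to 57.3) and Pcdhga11 at 6.61 (others 24.8 to 28.0) were low.

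Cdh26 was high in replicate 2 of ret/wt in both regions, at 1.89 CPM in cortex (others 0.0537 to 0.310) and 0.983 in thalamus (others 0.297 to 0.357). Cdh15 reached 34.9 CPM in ret/ret cortex replicate 2 (others 1.09 to 4.97), and Cdh23 reached 36.2 CPM in ret/ret thalamus replicate 4 (others 2.24 to 4.53). Pcdh12 was at 2.62 CPM in ret/ret thalamus replicate 1 (others 0.195 to 0.582). The Pcdha11 row ENSMUSG00000007440 was at 17.0 CPM in ret/ret cortex replicate 3 (others 11.04 to 11.9).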

How the results depend on the processing

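The number of cadherin and protocadherin genes called between regions moved with the test, the threshold and single libraries. In ret/wt it went from 9 to 14 with DESeq2 and 2 at an adjusted p under 0.01, and ran from 3 to 11 when 1 library was left out. In ret/ret it went from 8 to 22 with DESeq2 and 1 at 0.01, and ran from 3 to 10 with 1 library left out. Over all genes, the ret/wt calls went from 1818 to 2658 with DESeq2 and 753 at 0.01. The ret/ret calls over all genes went from 1384 to 2637 and 335. With 1 library left out, these ran from 1129 to 1756 in ret/wt and from 605 to 1998 in ret/ret. The genotype count in thalamus went from 0 to 1 with DESeq2 for the members, and from 0 to 36 over all genes. The cause of these shifts was not tested. Over all genes, upper-quartile scaling moved the median log2 fold change from 0.03 to 0.14 in ret/wt and from -0.02 to 0.10 in ret/ret, and the calls from 785 higher and 1033 lower to 988 and 869, and from 603 and 781 to 818 and 651. With the animal as a replicate block, 9 members were called in ret/wt (8 of them also without it) and 11 in ret/ret (6 of them also without it). That block called 1442 of all genes in ret/wt and 1131 in ret/ret. The changed calls are given beside each gene and the gamma sum, and no other call of a member changed. Equal numbers across genotypes are different animals, and that block called 0 members in either region.

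Signs changed only for values that passed no test. With limma-voom and with the block, Pcdh12 was -0.24 and -0.27 between regions in ret/wt, -0.25 and -0.35 in ret/ret, and -0.016 and -0.050 in the interaction. Cdh2 between genotypes in cortex was 0.11 without both animals whose cortex held cerebellum markers, 0.016 with library size alone and 0.0043 with upper-quartile scaling. With 1 library left out, region values ran in ret/wt from -0.35 to 0.21 for Cdh13, -0.064 to 0.38 for Cdh5 and -0.90 to 0.46 for Pcdh12, and in ret/ret from -0.36 to 0.85 for Cdh5 and -1.07 to 0.54 for Pcdh12. Genotype values in thalamus ran from -0.10 to 0.32 for Cdh13, -0.17 to 0.046 for Cdh2, -0.26 to 0.048 for the alpha sum and -0.12 to 0.16 for the beta sum. In cortex they ran from -0.14 to 0.10 for Cdh2, -0.016 to 0.16 for the beta sum and -0.035 to 0.11 for the gamma sum. Interactions ran from -2.61 to 0.13 for Cdh15, -0.18 to 0.076 for Cdh2, -0.45 to 0.78 for Cdh5 and -1.10 to 1.14 for Pcdh12. Members at few counts, Pcdh12 and Cdh26 in ret/wt above all, are limited by depth.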

Other observations

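GENCODE gives the symbol Pcdha11 to 2 rows of the table. The row described above, ENSMUSG00000007440, is where RefSeq places Pcdha10. The other, ENSMUSG00000102206, was at 19.9, 7.48, 9.10 and 9.39 CPM in ret/wt cortex and 42.1, 3.28, 3.09 and 0.331 in ret/wt thalamus (log2 fold change 0.10 ± 1.02, adjusted p = 0.964 in edgeR's test). In ret/ret it was at 8.41, 7.65, 16.2 and 3.26 in cortex and 11.8, 6.08, 26.1 and 3.56 in thalamus (0.40 ± 0.64, adjusted p = 0.731).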
